A study of Homo sapiens with 3 samples.

Results

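Integrin subunits were followed across 3 lines of PC3-Luc cells, a human prostate adenocarcinoma line that all groups share and that carries luciferase from a pMSCV-luc construct. PC3 cells were first grown from a bone metastasis and do not depend on androgen. The members are the genes ITGA1, ITGA2, ITGA3, ITGA5, ITGA6, ITGAV, ITGB1, ITGB4 and ITGB5, which were found by symbol, so 9 of the 21726 genes in the table. ITGB6, the other of the 10 subunits chosen, was not analysed here. The sh718 line and the sh720 line each carry a hairpin meant to lower CTHRC1, a secreted glycoprotein linked to cell migration, and the control line carries a control hairpin. Each line was sequenced as 3 libraries after 24 h in 6-well plates. How the hairpins were delivered, and whether a line is a clone or a pool, is not stated in the available sources. They also do not say whether a line's libraries were separate cultures, so the p-values reflect spread among libraries that may be technical.

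Integrins are receptors in the cell membrane, each made of one alpha and one beta subunit, that hold a cell to the matrix around it and pass signals both ways. The alpha subunit largely sets the ligand. ITGB1 is the common partner, pairing with ITGA1 and ITGA2 to bind collagen, with ITGA3 and ITGA6 to bind laminin, and with ITGA5 to bind fibronectin. ITGB4 pairs only with ITGA6 and anchors epithelial cells to laminin at hemidesmosomes, the junctions that link the basement membrane to keratin filaments. ITGAV joins ITGB1, ITGB5 and others to bind proteins with an RGD motif, such as vitronectin and fibronectin. In prostate cancer, collagen-binding and RGD-binding integrins have been studied for the attachment of tumour cells to bone.

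In the sh718 line, the laminin-binding subunits ITGB4, ITGA3, ITGA6 and their partner ITGB1 were higher than in control, as was the fibronectin receptor subunit ITGA5, while the collagen receptor subunit ITGA1 was lower. In the sh720 line, ITGA1 and ITGA2 were lower than in control and ITGB4 was slightly higher. ITGA1 was the subunit called lower in both lines, and ITGB4 the one called higher in both. In DESeq2, the ITGB4 and ITGA2 calls in sh720 and the ITGA6 call in sh718 were lost (adjusted p 0.116, 0.0643 and 0.147). Each was also lost on leaving out certain single libraries, while both ITGA1 calls were kept in every alternative run. Calls here mean an edgeR quasi-likelihood test with a Benjamini-Hochberg adjusted p below 0.05, adjusted over all 9556 genes tested. By that rule 6 of 9 subunits were called in sh718 against control, 5 higher and 1 lower. Of all tested genes 20.4% were called in that comparison, 9.56% higher and 10.8% lower. In sh720 against control 3 of 9 were called, 1 higher and 2 lower, beside 6.85% of all tested genes, 3.43% higher and 3.42% lower. The hairpin lines differed directly in 4 of 9 subunits, all higher in sh718 than in sh720, beside 25.3% of all tested genes, 12.3% higher and 13% lower. Genes called higher in both hairpin lines, as ITGB4 was, made up 0.858% of those tested. None of the 9 subunits was lower in sh718 than in sh720 by edgeR, by DESeq2 or at an unadjusted p under 0.05. All 9 subunits met the count minimum, an average of at least 20 counts per line. The 2 comparisons with control use the same control libraries, so their changes are not independent.

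Promoter sequences of 7 of the 9 subunits were matched by symbol in RefSeq tables of build GRCh38.p14, from 250 bases before to 50 bases after a start site. Shown here are the promoters of ITGA1, called lower in both hairpin lines, of its chromosomal neighbour ITGA2, and of ITGB1 and ITGA5, called higher in sh718. Capitals mark matches, on either strand, to TGANTCA (the AP-1 site), GGGCGG (the GC box), CATTCC (a TEAD site) and TGACGTCA (the CRE site).
ITGA1, chr5:52787666-52787965, plus strand: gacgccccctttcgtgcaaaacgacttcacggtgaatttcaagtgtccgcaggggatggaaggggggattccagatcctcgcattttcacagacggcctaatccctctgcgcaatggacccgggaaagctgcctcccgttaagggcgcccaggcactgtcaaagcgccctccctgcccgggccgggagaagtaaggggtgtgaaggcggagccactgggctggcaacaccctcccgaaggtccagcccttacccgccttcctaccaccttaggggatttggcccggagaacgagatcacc
ITGA2, chr5:52989102-52989401, plus strand: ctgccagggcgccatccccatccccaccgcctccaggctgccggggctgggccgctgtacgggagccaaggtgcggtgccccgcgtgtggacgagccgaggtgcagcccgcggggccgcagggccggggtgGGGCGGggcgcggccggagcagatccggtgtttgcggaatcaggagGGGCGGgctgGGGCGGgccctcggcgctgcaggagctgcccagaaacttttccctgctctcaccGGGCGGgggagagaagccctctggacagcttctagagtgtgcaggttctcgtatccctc
ITGB1, chr10:32958181-32958480, minus strand: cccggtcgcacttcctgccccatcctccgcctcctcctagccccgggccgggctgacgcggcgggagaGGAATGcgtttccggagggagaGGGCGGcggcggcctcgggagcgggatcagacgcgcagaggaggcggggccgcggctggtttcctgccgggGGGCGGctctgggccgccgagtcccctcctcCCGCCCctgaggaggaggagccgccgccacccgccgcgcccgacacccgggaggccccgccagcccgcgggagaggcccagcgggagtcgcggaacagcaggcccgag
ITGA5, chr12:54419217-54419516, minus strand: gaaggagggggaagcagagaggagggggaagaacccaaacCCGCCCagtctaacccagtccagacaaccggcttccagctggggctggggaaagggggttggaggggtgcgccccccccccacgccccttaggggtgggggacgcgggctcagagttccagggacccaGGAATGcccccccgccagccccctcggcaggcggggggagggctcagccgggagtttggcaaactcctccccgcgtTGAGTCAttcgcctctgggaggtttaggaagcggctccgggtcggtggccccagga
The ITGA1 window held none of these motifs. ITGA2 held 4 GC boxes, ITGB1 held 3 GC boxes and 1 TEAD site, and ITGA5 held 1 AP-1 site, 1 GC box and 1 TEAD site. Of the windows not printed, ITGA6, also called higher in sh718, held only 1 GC box. ITGB5 held only 2 GC boxes, and ITGAV held none of the motifs. Among 35116 promoters of the same length, 45% held a GC box, 14% a TEAD site, 7.71% an AP-1 site and 1.85% a CRE site. These matches are letters in a window and were not tested as sites. The ITGB1 start used here is the nearer of 2 in RefSeq and lies 47562 bases inside the gene as GENCODE 29 draws it.

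Each library held between 883663 and 1108960 counts. The common biological coefficient of variation was 5.89%. CTHRC1 had 2, 2 and 1 counts in the sh718 libraries and 18, 19 and 10 in the sh720 libraries, against 88, 117 and 126 in control. Both hairpin lines lay below every control library. Of the markers of other cells, the leukocyte and platelet list had a summed level of 8.25 to 10.1 CPM in sh718 and 6.79 to 12.5 CPM in sh720, against 4.51 to 12.4 CPM in control, and the fibroblast list stayed at or below 6.79 CPM in every library. Of 5 epithelial markers tested, 1 was called higher and 2 lower in sh718, and 3 higher and none lower in sh720. KRT7 averaged 51.9 CPM in sh718 and 526 CPM in sh720, against 312 CPM in control, with log2 changes of -2.57 and 0.75, both called. EPCAM had 40 summed counts in sh718 and 120 in sh720, against 108 in control, and was called lower in sh718 at -1.39. KRT19 was called higher in sh718 at 0.39, and KRT8 and KRT18 higher in sh720 at 0.46 and 0.22. The part of these shifts in the integrin changes was not tested. CDH1, another epithelial marker, had 1, 8 and 6 counts in sh718, sh720 and control. The endothelial list stood at 55.4 to 64.7 CPM in sh718 and 13.4 to 31.2 CPM in sh720, against 24.8 to 27.0 CPM in control, and PECAM1 held most of it. PECAM1, the only gene of that list tested, was called higher in sh718 (log2 1.03, edgeR adjusted p 2.63e-04). In sh720 PECAM1 lay at -0.28 and was not called (adjusted p 0.644). KDR had 33 counts in sh718, none in sh720 and 6 in control, and TEK had 1, none and none. CDH5 and VWF were not analysed here, and the part of these markers in the changes of sh718 was not tested.

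**Figure D1:**
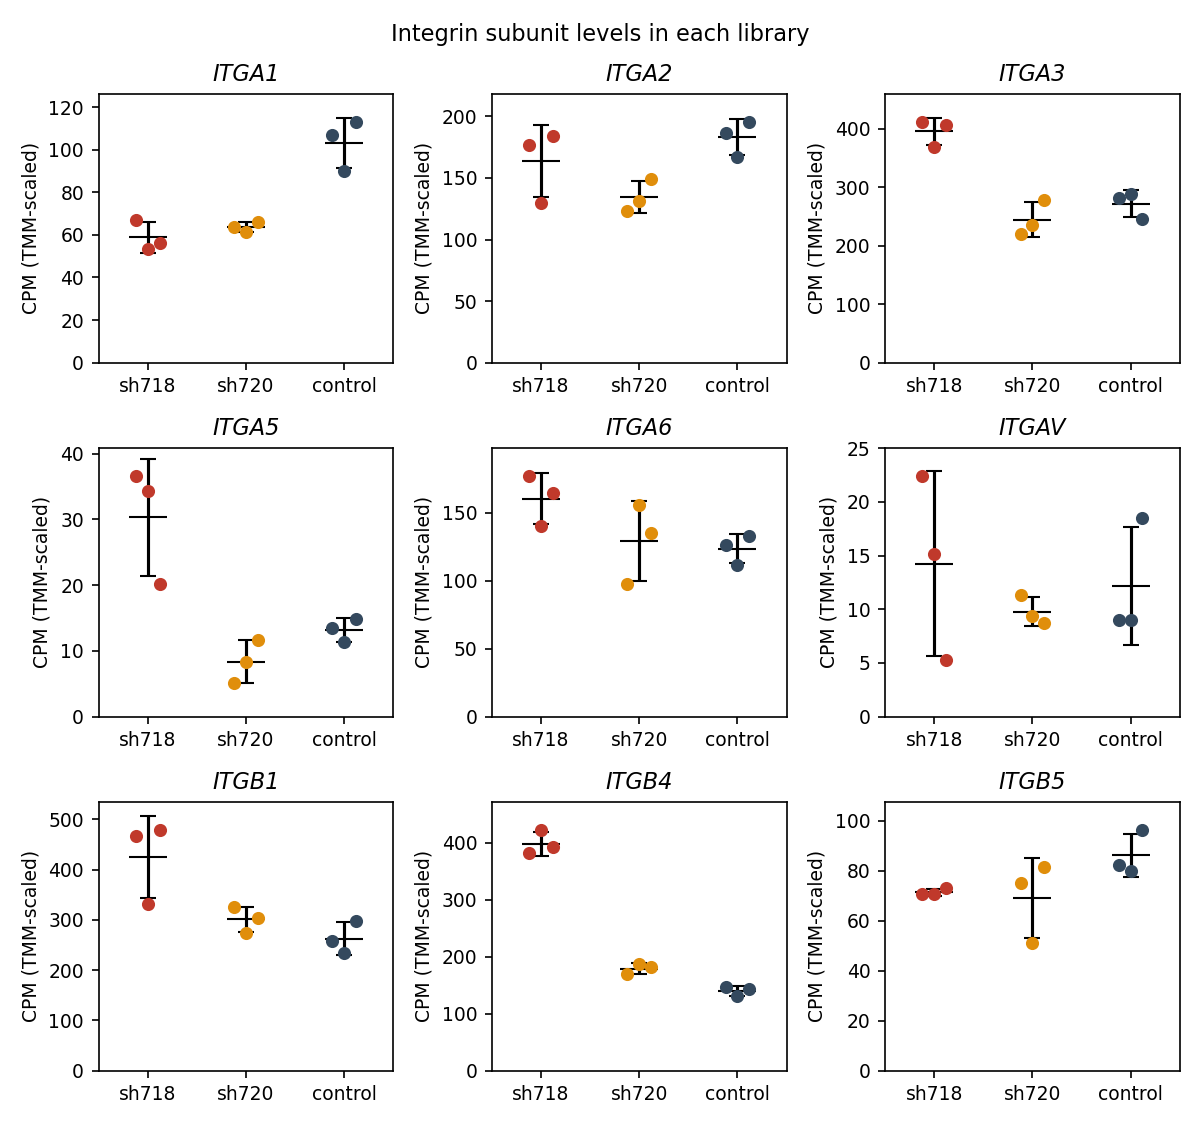
Level of each integrin subunit in TMM-scaled CPM (counts scaled to library size, vertical axes from 0) in the 3 libraries of the sh718, sh720 and control lines; points are libraries, and bars are the mean and SD. For ITGB4 the sh718 libraries sit at 382 to 422 CPM, far above the others, while for ITGA1 both hairpin lines sit below the control libraries.

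Per kilobase of the longest coding transcript, ITGB1 had the highest mean level in each line. It stood at 112 ± 21.7 CPM per kb in sh718 and 79.6 ± 6.67 CPM per kb in sh720, against 69.4 ± 8.47 CPM per kb in control (SD, n = 3 libraries). ITGA3 followed, at 81.0 ± 4.66 in sh718 and 50.1 ± 6.12 in sh720, against 55.7 ± 4.66 CPM per kb in control. The third place by mean was ITGB4 in all lines, at 67.4 ± 3.55 CPM per kb in sh718 and 30.3 ± 1.52 in sh720, against 23.7 ± 1.40 in control. In control its SD range overlapped those of ITGA2 (23.3 ± 1.85) and ITGA6 (22.0 ± 1.96), whereas in sh718 it stood well above both (20.8 ± 3.74 and 28.5 ± 3.32). ITGB5 lay at 16.3 ± 0.332 CPM per kb in sh718 and 15.8 ± 3.68 in sh720, against 19.7 ± 2.01 in control. At the low end were ITGA1, ITGA5 and ITGAV, the last at 2.03 ± 1.22 CPM per kb in sh718 and 1.39 ± 0.191 in sh720, against 1.73 ± 0.779 in control. The library type and counting program are not stated in the sources, so these levels per length assume reads spread along the transcript.

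ITGB4 (ENSG00000132470, GRCh38 chromosome 17, 75721328 to 75757818, plus strand) showed the largest rise of the 9 in sh718 against control. Its level was 382, 422 and 392.1 CPM in sh718 and 169.5, 187 and 181 CPM in sh720, against 146, 131 and 143 CPM in control. All sh718 libraries lay above all sh720 libraries, and all of those above all control libraries. The log2 change was 1.51 in sh718 (edgeR adjusted p 3.41e-21, SE 0.10), or 2.84-fold. In sh720 it was 0.35 (adjusted p 0.025, SE 0.11), or 1.28-fold, and this smaller call was lost in DESeq2 (adjusted p 0.116), with no count minimum (0.061) and on leaving out either library 2 or 3 of sh720 or of control (0.0647 to 0.13). The direct difference of sh718 minus sh720 was 1.15 (adjusted p 8.51e-17, SE 0.09). GALK1, on the other strand, overlaps the ITGB4 locus with no shared exonic base and was not called (log2 -0.10 in sh718 and -0.16 in sh720).

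ITGA6 (ENSG00000091409, chromosome 2, 172427354 to 172506282, plus strand), the only alpha partner of ITGB4, moved much less. It had 177, 140.1 and 164 CPM in sh718 and 97.6, 156 and 135 CPM in sh720, against 126, 112 and 133 CPM in control. The sh718 libraries all lay above control, with a narrow gap, and the sh720 libraries lay on both sides of it. The log2 change was 0.36 in sh718 (edgeR adjusted p 0.0308, SE 0.13), lost in DESeq2 (adjusted p 0.147) and on leaving out sh718 library 1 or 3, or control library 1 or 2 (0.0636 to 0.143). In sh720 it was 0.06 (adjusted p 0.861, SE 0.13, 95% interval -0.20 to 0.32). Between the hairpin lines it was 0.30 (adjusted p 0.0642, SE 0.12), called without library 2 of sh718 (0.0225) or of sh720 (0.0145). The strand setting of the counting is not given. Antisense genes share 174, 125 and 52 exonic bases with ITGA6 and each had at most 15 summed counts in any line. The effect of this overlap on the ITGA6 counts was not tested.

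ITGA3 (ENSG00000005884, chromosome 17, 50055968 to 50090481, plus strand), a laminin receptor subunit common in epithelial cells, had 411, 369.8 and 407 CPM in sh718 and 221, 235 and 278 CPM in sh720, against 282, 289 and 246 CPM in control. The sh718 libraries stood clear of the rest, and the other lines overlapped. Its log2 change was 0.54 in sh718 (edgeR adjusted p 2.23e-06, SE 0.09) and -0.15 in sh720 (adjusted p 0.427, SE 0.09). The lines differed by 0.69 (adjusted p 5.14e-09, SE 0.09).

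ITGB1 (ENSG00000150093, chromosome 10, 32900319 to 33005792, minus strand) had 467, 330.5 and 478 CPM in sh718 and 325, 274 and 304 CPM in sh720, against 258, 233 and 297 CPM in control. Library 2 of sh718 was the low one of its line but still above every sh720 and control library. The log2 change was 0.68 in sh718 (edgeR adjusted p 9.83e-08, SE 0.10) and 0.19 in sh720 (adjusted p 0.303, SE 0.10, 95% interval -0.01 to 0.39). The difference between the hairpin lines was 0.49 (adjusted p 4.59e-05, SE 0.10). ITGB1-DT, a non-coding gene on the opposite strand that shares 42 exonic bases with ITGB1, had 9, 14 and 15 counts in sh718 and 0, 2 and 11 counts in sh720, against 1, 3 and 4 counts in control. It fell under the count minimum and was not tested.

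**Figure D2:**
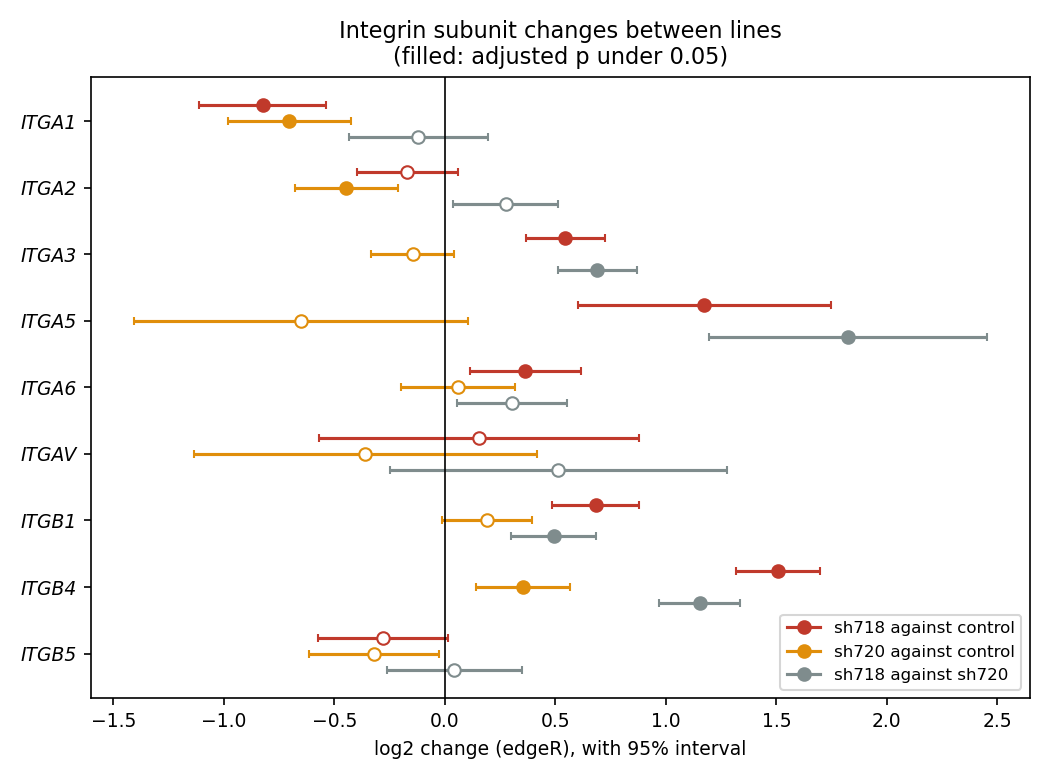
Log2 change of each integrin subunit (horizontal axis, edgeR, bars are 95% intervals) in each hairpin line set against control and between the hairpin lines; filled points have an adjusted p under 0.05. ITGB4 lies at 1.51 and 0.35 against control, and ITGA1 at -0.82 and -0.70.

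ITGA1 (ENSG00000213949, chromosome 5, 52787896 to 52959210, plus strand) encodes the collagen receptor subunit that favours collagen type IV of basement membranes. Its level was 67.2, 53.4 and 56.2 CPM in sh718 and 63.7, 61.3 and 65.9 CPM in sh720, against 107, 90.2 and 113 CPM in control. Both hairpin lines lay below every control library, and they overlapped each other. The log2 change was -0.82 in sh718 (edgeR adjusted p 7.4e-06, SE 0.14) and -0.70 in sh720 (adjusted p 1.76e-04, SE 0.14). Both calls were kept in every alternative run, with adjusted p of at most 7.43e-04 in sh718 and 0.00828 in sh720. The difference between the hairpin lines was -0.12 (adjusted p 0.634), with a 95% interval of -0.43 to 0.19. Genes called lower in both lines made up 1.41% of those tested.

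PELO, which encodes a ribosome rescue factor, starts 44 bases downstream of ITGA1 on the same strand, inside the promoter window printed above, and shares 475 exonic bases with it. It had 69.5, 63.5 and 75.2 CPM in sh718 and 62.7, 67.6 and 63.0 CPM in sh720, against 60.8, 53.0 and 51.8 CPM in control. Both hairpin lines were thus above control for PELO, and below it for ITGA1. The log2 change of PELO was 0.33 in sh718 (edgeR adjusted p 0.125) and 0.23 in sh720 (adjusted p 0.469), not called. Reads from the shared bases cannot be told apart between the genes. An antisense gene, AC022126.1, shares 109 exonic bases with ITGA1 and had 1, 0 and 2 summed counts in sh718, sh720 and control. AC022133.1, a processed pseudogene on the same strand, shares 571 exonic bases with ITGA1, and the antisense gene AC025180.1 shares 118. Neither was analysed here.

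ITGA2 (ENSG00000164171, chromosome 5, 52989326 to 53094779, plus strand), whose product with ITGB1 prefers collagen type I, the main collagen of bone, begins 30116 bases past the end of ITGA1. It had 177, 130.0 and 184 CPM in sh718 and 123, 131 and 149 CPM in sh720, against 187, 167 and 195 CPM in control. All sh720 libraries lay below control, while sh718 overlapped both lines. The log2 change was -0.45 in sh720 (edgeR adjusted p 0.00799, SE 0.12), lost in DESeq2 (adjusted p 0.0643) and without sh720 library 1 or control library 3 (adjusted p 0.0676 and 0.0741). In sh718 it was -0.17 (adjusted p 0.313, SE 0.11). The difference of sh718 minus sh720, 0.28 (adjusted p 0.0815, SE 0.12), did not pass the threshold, but did so without sh718 library 2 (0.00725) or sh720 library 3 (0.0491). The next tested genes outside this pair, EMB and MOCS2, were called in neither line.

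ITGA5 (ENSG00000161638, chromosome 12, 54395261 to 54419460, minus strand), the alpha subunit of the classical fibronectin receptor, was scarce. It had 31, 34 and 19 counts in sh718 and 5, 8 and 12 counts in sh720, against 12, 10 and 16 counts in control. As levels these were 36.5, 34.3 and 20.1 CPM in sh718 and 5.14, 8.32 and 11.6 CPM in sh720, against 13.5, 11.3 and 14.8 CPM in control. Every sh718 library lay above every other library, and sh720 overlapped control. The log2 change was 1.17 in sh718 (edgeR adjusted p 0.00143, SE 0.29) and -0.65 in sh720 (adjusted p 0.362, SE 0.38, 95% interval -1.41 to 0.11). The difference between the hairpin lines, 1.82 (adjusted p 4.96e-06, SE 0.31), was the largest among the 9 subunits.

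ITGAV (ENSG00000138448, chromosome 2, 186590065 to 186680901, plus strand) was not called in any comparison. It had 19, 15 and 5 counts in sh718 and 11, 9 and 9 in sh720, against 8, 8 and 20 in control, and the lines overlapped. Its log2 change was 0.15 in sh718 (edgeR adjusted p 0.818, SE 0.36) and -0.36 in sh720 (adjusted p 0.687, SE 0.39). ITGB5 (ENSG00000082781, chromosome 3, 124761948 to 124901418, minus strand), its vitronectin-binding partner, had 70.7, 70.5 and 73.1 CPM in sh718 and 75.0, 50.9 and 81.4 CPM in sh720, against 82.2, 80.1 and 96.2 CPM in control. Its log2 change was -0.28 in sh718 (adjusted p 0.186, SE 0.15) and -0.32 in sh720 (adjusted p 0.206, SE 0.15), neither called, although all sh718 libraries lay below control.

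Counting full separation without a test, 7 of 9 subunits had sh718 libraries all above or all below the control libraries, 5 above and 2 below, beside 33.5% of all tested genes. For sh720 it was 3 of 9, 1 above and 2 below, beside 23.5%. Between the hairpin lines 4 of 9 were separated, all with sh718 above, beside 37%. The median log2 change of the 9 was 0.36 in sh718 and -0.32 in sh720, beside 0.0024 and 0.0015 over all tested genes. In a bulk library, more cells with a transcript and more transcript per cell cannot be told apart.

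The make-up of the counts of the 9 subunits differed among the lines. These counts are not scaled to transcript length, and other subunits such as ITGAE and ITGB8 are not included. Of the counts of the 3 beta subunits, ITGB4 held 41.5% to 51.3% in sh718 and 29.8% to 36.5% in sh720, against 26.7% to 30.1% in control. ITGB1 held 40.1% to 50.8% in sh718 and 53.5% to 57.0% in sh720, against 52.5% to 55.3% in control. Among the 6 alpha subunits, ITGA3 held 46.2% to 49.8% in sh718 and 39.1% to 42.9% in sh720, against 34.1% to 42.6% in control, while ITGA1 held 6.71% to 7.54% in sh718 and 10.2% to 12.2% in sh720, against 13.3% to 15.7% in control. The ratio of alpha to beta counts was 0.888 to 0.969 in sh718 and 0.917 to 1.17 in sh720, against 1.34 to 1.53 in control, so both hairpin lines lay below control. The summed level of the 9 subunits was 1566 to 1810 CPM in sh718 and 1091 to 1216 CPM in sh720, against 1122 to 1257 CPM in control. These are descriptions with no test.

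**Figure D3:**
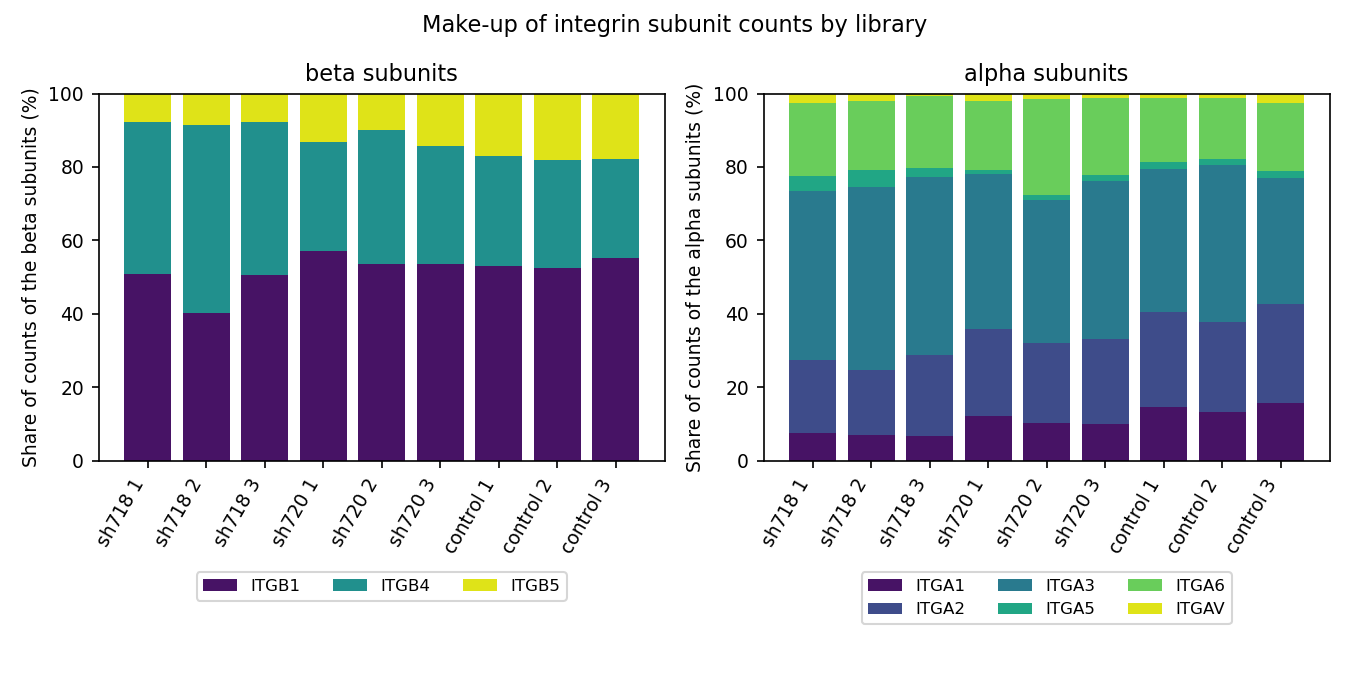
Share of the counts of the 3 beta subunits (left) and of the 6 alpha subunits (right) that each gene holds, in percent, for the 9 libraries named on the horizontal axes. The ITGB4 share is 41.5% to 51.3% in sh718 and at most 36.5% elsewhere, and the ITGA1 share is at most 7.54% in sh718 and at least 13.3% in control.

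Ratios of counts within a library do not depend on library scaling. The ITGB4 to ITGB1 ratio was 0.818, 1.28 and 0.82 in sh718 and 0.522, 0.682 and 0.596 in sh720, against 0.568, 0.56 and 0.483 in control. The sh718 libraries lay above the rest, with a mean log2 difference from control of 0.82 and from sh720 of 0.67. The ITGA1 to ITGA2 ratio was 0.38, 0.411 and 0.305 in sh718 and 0.517, 0.468 and 0.442 in sh720, against 0.572, 0.541 and 0.578 in control. These 3 groups did not overlap, and the log2 difference from control was -0.63 in sh718 and -0.25 in sh720. The ITGA6 to ITGA3 ratio was 0.43, 0.379 and 0.404 in sh718 and 0.442, 0.664 and 0.484 in sh720, against 0.448, 0.387 and 0.541 in control, and both hairpin lines overlapped control. In 2-sided exact permutation tests the smallest p that 3 against 3 libraries allow is 0.1, and 6 of 9 relations tested reached it, each with a Benjamini-Hochberg adjusted value of 0.15.

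Other integrin subunits were mostly near 0. Of 16 further subunit genes, 10 were found in the table and 3 met the count minimum. ITGB8, whose product with ITGAV binds latent TGF-beta, had summed counts of 75 in sh718 and 110 in sh720, against 122 in control, with a log2 change of -0.66 in sh718 (edgeR adjusted p 0.0181) that DESeq2 did not call (adjusted p 0.123) and that was lost on leaving out sh718 library 2 or 3, or control library 1 or 2 (0.0582 to 0.0975). The sh718 minus sh720 difference of ITGB8 was -0.46 (edgeR unadjusted p 0.0391, adjusted p 0.119), not called. ITGAE, a subunit of lymphocytes within epithelia, had 131 and 125 summed counts in sh718 and sh720, against 141 in control, and was not called. ITGB2, the leukocyte beta subunit, had 18 and 22, against 21. The platelet subunit ITGA2B had 1 and 3 counts, against 3, and ITGB3, its partner and an ITGAV partner in bone-resorbing cells, 6 and 6, against 3. ITGA7 had 11 and 4 counts, against 5, ITGA10 had 7 and 1, against 3, and ITGA11 had 4 and 2, against none. ITGAM and ITGAX had at most 1 count in any line.

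Among integrin ligands, laminin chains were higher in sh718 and several matrix genes were lower in sh720. In sh718, 10 of 24 tested rose and 2 fell, with a median log2 change of 0.17, beside 9.56% higher and 10.8% lower among all tested genes. In sh720, 1 rose and 4 fell, with a median of -0.20, beside 3.43% higher and 3.42% lower. The same background applies to the lists that follow. DESeq2 called 7 ligands higher and 2 lower in sh718, and 1 higher and 2 lower in sh720. LAMA5, the alpha chain of common basement membrane laminins, averaged 256 CPM in sh718 and 133 CPM in sh720, against 143 CPM in control, with a log2 change of 0.84 in sh718 (edgeR adjusted p 1.68e-09, SE 0.10) and -0.11 in sh720. LAMA4 rose by 1.39 in sh718 and lay at -0.20 in sh720. LAMB3, a chain of the laminin that ITGB4 receptors bind, lay at 0.21 in sh718, not called, and fell by 0.53 on the log2 scale in sh720 (adjusted p 0.00107, SE 0.12). FN1, fibronectin, fell by 1.01 in sh718 (adjusted p 3.73e-05, SE 0.19) and by 0.74 in sh720 (adjusted p 0.00359, SE 0.18), the sh720 call lost in DESeq2 (adjusted p 0.0714) and without control library 3 (0.0702). COL6A1, a collagen type VI chain, rose by 0.63 in sh718 and 0.51 in sh720. ADAM15, a metalloprotease whose domain binds integrins, rose by 0.58 in sh718 and lay at 0.15 in sh720, and ADAM9 fell by 0.76 in sh718 and lay at -0.20 in sh720. LTBP1, which holds latent TGF-beta in the matrix, fell by 0.47 in sh720, a call lost without control library 3 (adjusted p 0.051). In sh718 it rose by 0.28, a call lost in DESeq2 (adjusted p 0.174), without a count minimum (0.0833), and without sh718 library 3, sh720 library 2 or control library 1 or 2 (0.056 to 0.223).

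Activators and adaptors of integrins changed in both directions in sh718, and those called in sh720 were all lower. In sh718, 5 of 29 tested activators and adaptors rose and 5 fell (median log2 0.10). In sh720, none rose and 3 fell (median -0.11). In sh720, none was higher by edgeR, by DESeq2 or at an unadjusted p under 0.05. DESeq2 called 3 higher and 4 lower in sh718, and 2 lower in sh720. VCL, vinculin, averaged 396 CPM in sh718 and 327 CPM in sh720, against 568 CPM in control, with log2 changes of -0.52 (edgeR adjusted p 2.14e-07, SE 0.08) and -0.80 (adjusted p 1.35e-12, SE 0.08). ZYX, zyxin of focal adhesions, changed by -0.34 in sh718 and -0.26 in sh720. DESeq2 did not call it in sh720 (adjusted p 0.0825), nor did edgeR on leaving out library 1 or 3 of sh720, or 2 or 3 of control (0.0884 to 0.116). In sh718, ACTN4, an actinin, rose by 0.54 (adjusted p 5.11e-07, SE 0.08), the kinase gene SRC by 0.82 (adjusted p 1.26e-05, SE 0.15) and TNS4, a tensin that binds beta subunit tails, by 2.18 (adjusted p 2.9e-06, SE 0.36). In sh720 these lay at -0.15, -0.07 and -0.35. TNS4 was scarce, with 29, 20 and 23 counts in sh718 and 2, 8 and 3 in sh720, against 4, 6 and 6 in control. The small GTPase genes RAP1A and RAP1B, whose products switch integrins on, moved apart in sh718, at -0.93 and 0.70, and the RAP1B call was lost in DESeq2 (adjusted p 0.0927) and without sh718 library 3 (0.0544). ILK, integrin-linked kinase, had no count in either hairpin line and 1 count in control. The counting program and annotation are not stated, so this does not show that the cells lack ILK. Whether its reads were lost in counting was not tested.

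Against control, genes of integrin inhibition and traffic gave 1 edgeR call among 12 tested. That was RCC2, a regulator of small GTPases at integrin sites, at -1.18 in sh718 (edgeR adjusted p 0.0134, SE 0.37). It was lost in DESeq2 (adjusted p 0.0948) and without sh718 library 2 or control library 1 (0.102 and 0.141). In sh720 no gene of this list was called by edgeR or DESeq2, and 2 had an unadjusted p under 0.05 in edgeR, 1 in each direction. Between the hairpin lines, RAB21, a GTPase that binds alpha subunit tails, was lower in sh718 than in sh720 by edgeR (log2 -0.40, adjusted p 0.0363), where DESeq2 called none of the list.

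Membrane partners of integrins changed in both directions. In sh718, 3 of 16 tested rose and 4 fell. In sh720, 3 rose and 3 fell. DESeq2 called 2 higher and 3 lower in sh718, and 1 higher and 2 lower in sh720. EPHA2, a receptor tyrosine kinase that crosses with integrin signalling, averaged 61.6 CPM in sh718 and 377 CPM in sh720, against 315 CPM in control, a log2 change of -2.35 in sh718 (edgeR adjusted p 2.37e-27, SE 0.11). In sh720 it was 0.26, a call that was lost in DESeq2 (adjusted p 0.206), with upper-quartile scaling (0.0659), with no count minimum (0.117) and on leaving out any library of sh720 or control (0.0703 to 0.184). SDC1, a syndecan that works with ITGAV and ITGB4 receptors, rose by 0.52 in sh718 and fell by 0.51 in sh720. CD151, the tetraspanin bound to laminin-binding integrins, was at -0.30 in sh718 (adjusted p 0.0277) and 0.32 in sh720 (adjusted p 0.0238). Both CD151 calls against control were lost in DESeq2 (adjusted p 0.132 and 0.137), in sh718 without its library 2 or 3 or control library 2 or 3 (0.0859 to 0.181), and in sh720 without its library 1 or 3 or control library 1 or 3 (0.0582 to 0.196), whereas the direct difference between the hairpin lines was -0.62 (adjusted p 8.22e-07, SE 0.10). SLC3A2, which binds beta subunit tails and carries amino acid transporters, had a log2 change of -0.23 in sh718, called only on leaving out control library 1 (adjusted p 0.0445), and rose by 0.67 in sh720. CAV1, caveolin, fell by 0.41 in sh718 and 0.43 in sh720. BSG, basigin, rose by 0.44 and CD44, a hyaluronan receptor, fell by 0.47 in sh718, and in sh720 they lay at -0.03 and 0.20.

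Of the hemidesmosome genes, 6 were tested, and 4 rose and 1 fell in sh718 (median log2 0.44), while 1 rose and 1 fell in sh720 (median 0.02). By DESeq2, 3 were higher and none lower in sh718, and none higher and 1 lower in sh720. PLEC, plectin, which ties ITGB4 to keratin, averaged 724 CPM in sh718 and 503 CPM in sh720, against 519.8 CPM in control, with a log2 change of 0.48 in sh718 (edgeR adjusted p 1.02e-06, SE 0.08) and -0.05 in sh720. The laminin chain LAMA3 rose by 0.80 in sh718 (adjusted p 6.56e-04, SE 0.18) and lay at -0.54 in sh720 (adjusted p 0.151). DST, dystonin, which was named after its values were seen, rose by 0.40 in sh718 (edgeR adjusted p 0.0334, SE 0.14) and lay at 0.09 in sh720. The DST levels of sh718 and control libraries overlapped, and whether its call holds without single libraries was not tested. The basal keratin KRT5 had at most 1 count in any line. CD151, LAMA3 and LAMB3 are also in the lists above.

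**Figure D4:**
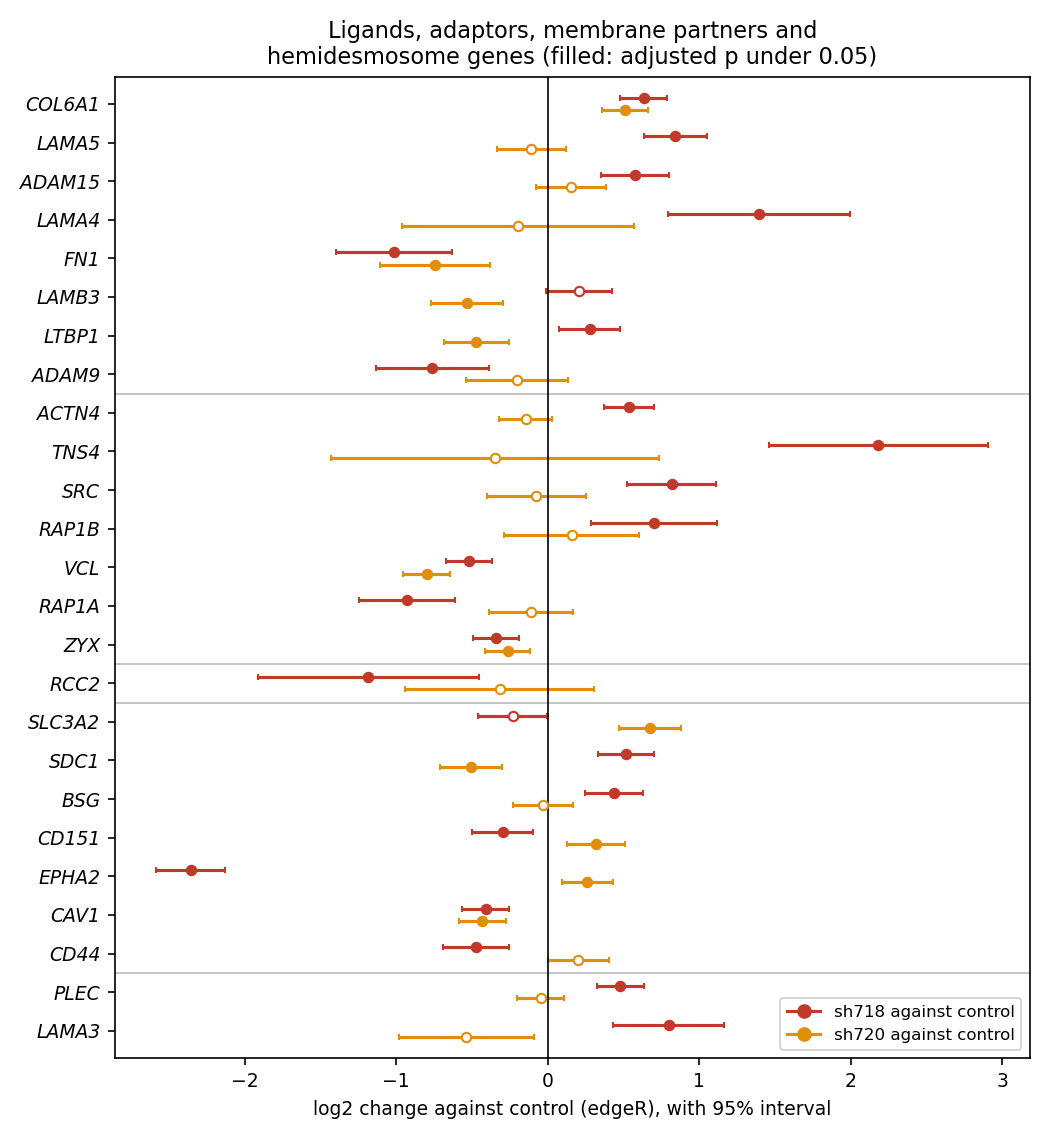
Log2 change against control (horizontal axis, edgeR, bars are 95% intervals) of the named ligands, adaptors, RCC2, membrane partners and hemidesmosome genes, in blocks from top to bottom, in sh718 and sh720; filled points have an adjusted p under 0.05. SDC1 lies at 0.52 in sh718 and -0.51 in sh720, and VCL at -0.52 and -0.80.

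The next tested genes on either side of the subunits, subunits aside, numbered 16. In sh718, 6 were called, all higher, and in sh720 3 were called, all higher, beside 20.4% and 6.85% of all tested genes. SAP30BP and H3F3B flank ITGB4, and in sh718 they rose by a log2 of 0.64 (edgeR adjusted p 6.05e-04) and 0.47 (adjusted p 9.38e-09), beside 1.51 for ITGB4. In sh720, H3F3B rose by 0.23 and SAP30BP lay at 0.03. PDK2, 4256 bases past ITGA3, rose by 1.02 in sh718 and 0.87 in sh720, where ITGA3 itself was not called. PDK1, past ITGA6, rose by 0.93 in sh718. BLOC1S1 and TFPI, 1296577 and 783329 bases from ITGA5 and ITGAV, rose by 0.65 and 0.67 in sh718. NRP1, beside ITGB1, did not pass the test in sh718 and rose by 0.43 in sh720. KAT7, ZNF385A, DLX1, ZC3H15, CCDC7, EMB, MOCS2, UMPS and ZNF148 were called in neither line.

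The genes most like ITGB4 over the 9 libraries, by Pearson correlation of log2 CPM, were SLC9A3R2 (r 0.995), SERTAD2 (0.987), RAC1 (0.986), SERF2 (0.985) and SEMA7A (0.984). SLC9A3R2 changed by 1.14 in sh718 and 0.28 in sh720, and SEMA7A by 1.62 and 0.17. Those most like ITGA1 were KAT6B (r 0.988), AZI2 (0.974), GNL3 (0.971), NOP58 (0.959) and CACYBP (0.958), all at lower levels in both hairpin lines than in control by their log2 change. These correlations are a description over libraries that share their lines, and they were ranked among all tested genes.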

How the data were processed

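RNA was sequenced as single reads of 75 bp with 3000000 reads stated per sample, per the labels' protocols. The authors deposited unnormalized gene counts in 9 columns, 3 for each line, each used as 1 library of the line it names. Trim Galore and GRCh38 are named per the submitters' processing notes. No source used here states the aligner, counter, strand setting or annotation, so overlapping, antisense and near-identical genes are uncertain. The test was edgeR 4.0.16 (R 4.3.3; TMM, glmQLFit, glmQLFTest), fitting the 9 libraries of the 3 lines together. It covered 9556 genes with an average of at least 20 counts per line. P-values were adjusted by Benjamini-Hochberg per comparison, and the script was tested on simulated data. Levels are TMM-scaled CPM. Ratios used counts plus 0.5. Positions and transcript lengths are from GENCODE 29 (GRCh38). Alternatives were DESeq2 1.42.0, other scalings and count minimums, pairs of lines, a replicate block, no mitochondrial genes and each library left out. The subunits and gene lists were chosen with earlier results of these data known. Named genes were all subunits, and per list at most 4 called members per direction with the smallest p, of which some are not reported here. Neighbours are the next tested genes on each side. The 5 most similar genes were named for the subunits with the highest and lowest change in sh718. The planned ITGB6 to ITGB5 ratio was not analysed here. Libraries of a line differed beyond counting noise, with a chi-square per degree of freedom of 1.26 to 2.17.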

Additional observations from a re-analysis of the deposited data

Results flagged for a closer look

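The results here were picked because the direct contrast of sh718 minus sh720 passed the threshold (edgeR adjusted p under 0.05), so that the changes of the hairpin lines against the same control libraries differ. Only the integrin subunits, CTHRC1 and the genes picked per list by their calls against control were considered, so this is not every called gene. In full, edgeR called 10 of 24 ligands higher and 1 lower in this contrast, and 8 of 29 adaptors higher and 3 lower. Of 16 membrane partners, 3 were called higher and 5 lower. Over all tested genes, 12.3% were called higher and 13% lower. Among the integrin subunits the log2 differences were 1.82 for ITGA5, 1.15 for ITGB4, 0.69 for ITGA3 and 0.49 for ITGB1. CTHRC1 itself differed by -3.05. Among ligands they were 1.59 for LAMA4, 1.33 for LAMA3, 0.95 for LAMA5, 0.75 for LTBP1, 0.74 for LAMB3, 0.42 for ADAM15 and -0.56 for ADAM9. Among adaptors they were 2.53 for TNS4, 0.89 for SRC, 0.69 for ACTN4, 0.54 for RAP1B, 0.28 for VCL and -0.82 for RAP1A. Among membrane partners and hemidesmosome genes they were 1.03 for SDC1, 0.53 for PLEC, 0.47 for BSG, -0.62 for CD151, -0.67 for CD44, -0.90 for SLC3A2 and -2.62 for EPHA2. The difference of ADAM9 was not called by DESeq2 (adjusted p 0.146) or without sh718 library 2 or 3 or sh720 library 1 or 3 (0.0506 to 0.122). That of RAP1B was not called by DESeq2 (0.195), with no count minimum (0.066), or without library 2 or 3 of either hairpin line (0.0607 to 0.19). ADAM15 lost its call without sh718 library 3 (adjusted p 0.0544), and VCL without sh718 library 3 or sh720 library 1 (0.0611 and 0.0557).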

How the results depend on the processing

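The number of integrin subunits called in sh718 against control was 5 to 6 when libraries were left out in turn, and in sh718 against sh720 it was 4 to 6. In sh720 against control it was 1 to 3, with 0 to 1 higher and 1 to 2 lower. DESeq2 called 1 subunit in sh720, 0 higher and 1 lower, and with no count minimum 0 were higher. Over all genes, DESeq2 called 1007 in sh718 against control (447 higher, 560 lower), 298 in sh720 (132 and 166) and 1293 between the hairpin lines (632 and 661). Without a library these were 1506 to 1916, 466 to 706 and 1924 to 2406 by edgeR. With upper-quartile scaling ITGA2 and ITGA6 were also called between the hairpin lines (adjusted p 0.0487 and 0.0376).

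Same-numbered libraries did not deviate together (correlations of -0.0127 to 0.0219), and with the library number as a replicate block the calls of the subunits came to 6, 3 and 4 in the 3 comparisons, with 1977, 680 and 2425 calls over all genes. Some changes that were not called switched sign when a library was left out, and the cause was not tested. In sh718 against control the log2 ranges were ITGAV -0.28 to 0.63 and ITGAE -0.19 to 0.075. In sh720 against control the log2 ranges were ITGA6 -0.091 to 0.22, ITGAV -0.54 to 0.12, ITGB2 -0.22 to 0.17, SRC -0.21 to 0.015, RAP1B -0.11 to 0.29, RAP1A -0.26 to 0.020, BSG -0.16 to 0.028 and PLEC -0.11 to 0.034. Between sh718 and sh720 the log2 ranges were ITGB5 -0.14 to 0.18 and CAV1 -0.049 to 0.11. With upper-quartile scaling ITGB2 came to -0.00203 in sh720.

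Ratios within a library kept their sign with any library left out and with a pseudocount of 1. Leaving out libraries, for ITGB4 over ITGB1 the log2 difference was 0.61 to 0.93 in sh718 against control, 0.06 to 0.25 in sh720 against control and 0.46 to 0.78 in sh718 against sh720. For ITGA1 over ITGA2 the log2 difference was -0.72 to -0.51 in sh718 against control, -0.31 to -0.19 in sh720 against control and -0.48 to -0.26 in sh718 against sh720. For ITGA6 over ITGA3 the log2 difference was -0.29 to -0.05 in sh718 against control, 0.03 to 0.32 in sh720 against control and -0.49 to -0.20 in sh718 against sh720. ITGAV and ITGA5 had at most 34 counts in any library.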
